A study of Mus musculus with 12 samples.

Results

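The Ly6 (lymphocyte antigen 6) genes encode small surface proteins. Of the 54532 genes in the deposited table of mouse colon RNA, 8 were taken by symbol: Ly6a, Ly6c1, Ly6c2, Ly6d, Ly6e, Ly6g, Ly6i and Ly6g6c. The list was chosen by symbol and in part selected on measured values, the counts of Ly6g6c with and without colitis, since it is low in colitis in these data. The levels of Ly6g6c in these comparisons are therefore given below as a description with no test, and counts of members called for colitis or for the interaction cover the 7 others. All 8 genes are annotated as protein-coding, and all 8 passed the filter on low values (3 or more libraries at an FPKM, a level scaled for gene length and library depth, of 0.1 or above).

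Poly(A) RNA of whole colon was sequenced from 12 libraries in 4 groups of 3. Tmem173fl/fl mice (labelled WT) carry floxed alleles of Tmem173, the gene of the innate DNA-sensing adaptor STING, and no Cre. Tmem173iΔmye mice (labelled CRE) carry the same alleles and a tamoxifen-inducible Cre recombinase driven from Lyz2, a gene of macrophages, monocytes and neutrophils, which directs the deletion to these cells. Both genotypes were adult C57BL/6N mice and all had received 5 tamoxifen injections. Mice of each were either left untreated or given dextran sodium sulfate (DSS), a polymer that injures the colon epithelium, in the drinking water for 7 days. By the paper's methods a day of plain water followed before the colon was taken. The labels do not tie the libraries to named animals or litters, so p-values measure the spread between these libraries.

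Ly6 proteins carry a cysteine-rich LU domain, most are held on the outer cell surface by a glycosylphosphatidylinositol anchor, and several serve as antibody markers that sort leukocytes. Ly6g marks mouse neutrophils and the Ly6C antigen, made by Ly6c1 and Ly6c2, separates inflammatory monocytes. Ly6a (Sca-1) and Ly6e are also made by non-haematopoietic cells and are known to be interferon-inducible, and Ly6a is known as a marker of regenerating colon epithelium.

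In the files' genome build, GRCm38, 7 of the 8 genes lie in 1 stretch of chromosome 15: Ly6d at chr15:74762056-74763620 (minus strand), Ly6e at chr15:74955051-74959905 (plus), Ly6i at chr15:74979534-74983430 (minus), Ly6a at chr15:74994877-74998031 (minus), Ly6c1 at chr15:75044018-75048830 (minus), Ly6c2 at chr15:75108158-75111970 (minus) and Ly6g at chr15:75155240-75159126 (plus). Ly6g6c lies apart at chr17:35065388-35070050 (plus strand), where its span overlaps Mpig6b on the other strand. Whether the counting used strand is not given in the sources used here.

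Promoter sequence was found in RefSeq (GRCm38.p6) for 4 of the 8 genes. It is shown for the neighbours Ly6c1, Ly6c2 and Ly6g, because their upstream sequences resemble each other while Ly6g alone of these was called with DSS, and for Ly6g6c, because it had the largest fold change of the members with DSS. Each stretch ends just before the most upstream annotated start, except that of Ly6g6c, which ends before a RefSeq start inside the span given above, and none overlaps an annotated exon. Capitals mark TATAAA and CCAAT, or ATTGG where CCAAT lies on the other strand.
Ly6c1, chr15:75048921-75049087, minus strand: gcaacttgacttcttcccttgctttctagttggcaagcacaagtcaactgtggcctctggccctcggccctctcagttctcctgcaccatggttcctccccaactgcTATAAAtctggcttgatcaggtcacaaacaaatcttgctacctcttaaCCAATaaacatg
Ly6c2, chr15:75112067-75112221, minus strand: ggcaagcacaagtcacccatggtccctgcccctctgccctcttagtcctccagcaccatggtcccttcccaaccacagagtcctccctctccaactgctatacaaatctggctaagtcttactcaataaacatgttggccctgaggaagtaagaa
Ly6g, chr15:75155011-75155239, plus strand: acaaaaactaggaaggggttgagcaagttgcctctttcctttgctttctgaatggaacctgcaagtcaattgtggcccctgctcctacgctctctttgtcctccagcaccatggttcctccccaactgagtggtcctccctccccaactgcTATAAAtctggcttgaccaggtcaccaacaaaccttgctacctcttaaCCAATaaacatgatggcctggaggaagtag
Ly6g6c, chr17:35067075-35067324, plus strand: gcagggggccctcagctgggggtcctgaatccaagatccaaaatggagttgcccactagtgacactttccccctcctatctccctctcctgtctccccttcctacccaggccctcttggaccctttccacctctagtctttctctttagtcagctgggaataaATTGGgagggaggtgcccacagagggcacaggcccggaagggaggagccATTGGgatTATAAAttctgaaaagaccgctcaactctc

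In the best local alignments of the windows (250 bases before to 50 after a start), which leave out unaligned ends and count gaps as columns, Ly6c1 and Ly6g were identical in 77.7% of 273 columns, Ly6c1 and Ly6c2 in 74.8% of 286, and Ly6c2 and Ly6g in 71.9% of 249. TATAAA, searched on both strands, was present in a window of Ly6c1, Ly6g and Ly6g6c and in no window of Ly6c2, and 13.6% of all 32851 windows in the RefSeq table held it. CCAAT had the same distribution over these 4 genes and was present in 37.4% of all windows. TTCNNNGAA, the motif of STAT factors in interferon signalling, occurred on either strand in 8.3% of all windows and in none of these 4 genes. A match describes the letters only, and no match says nothing of a factor. The members also share transcript sequence, which bears on how reads could be assigned: among the 100-base stretches of the GENCODE transcripts, 10.1% of those of Ly6c1, 5.81% of Ly6c2 and 1.45% of Ly6a also occur in another gene, and none of the other 5 members' do. Of the 50-base stretches the shares were 32.8% for Ly6c1, 19% for Ly6a, 14.4% for Ly6c2, 4.76% for Ly6i and 0.448% for Ly6g, and 0 for the other 3. How far shared reads bear on the values below was not tested.

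The libraries held from 13823237 to 18718915 counts. Markers of colon tissue were present in every group (Epcam, an epithelial adhesion gene, from 252 to 978 FPKM), but their levels differed: of 10 colon genes, 4 were called lower and 1 higher with DSS in Tmem173fl/fl mice, 2 lower in Tmem173iΔmye mice and 1 higher in Tmem173iΔmye mice in colitis. The last was Hoxb13, a homeobox gene of the distal colon. It ranged from 61.5 to 111 FPKM in untreated Tmem173fl/fl, 38.6 to 106 in untreated Tmem173iΔmye, 0.282 to 2.26 in colitic Tmem173fl/fl and 9.43 to 86.5 in colitic Tmem173iΔmye libraries, and, like Ly6a, was called lower with DSS in Tmem173fl/fl mice (log2 fold change -6.45, edgeR adjusted p 6.559e-05), higher between the colitic genotypes (5.28, 0.04552) and in the interaction (5.69, 0.02465). Its part in the Ly6 values was not tested. The floxed gene itself, Tmem173, was not called between the genotypes in whole colon (log2 fold change -0.21 without DSS and -0.28 in colitis, edgeR adjusted p 1 and 0.602). It ranged from 6.07 to 10.4 FPKM in untreated Tmem173fl/fl and from 6.20 to 9.12 in untreated Tmem173iΔmye colon, and from 16.6 to 19.2 and from 10.2 to 20.7 in the colitic groups. Libraries numbered 3 in the untreated groups, and number 5 of colitic Tmem173iΔmye, had more reads of Xist, a gene of female cells, than Y-linked reads, and the other 9 libraries did not. No colitic Tmem173fl/fl library was of the first kind, so values without replicate 5 are given where they matter. In bulk tissue, fewer cells of a type and less RNA per cell cannot be told apart.

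The Ly6 RNAs spanned a wide range of levels in untreated colon. By FPKM the order of the means in untreated Tmem173fl/fl colon was Ly6a (869 ± 354, SD, n = 3), Ly6e (331 ± 156), Ly6c1 (79.0 ± 38.9), Ly6g (75.0 ± 30.6), Ly6c2 (11.5 ± 4.60), Ly6d (6.34 ± 3.19), Ly6g6c (5.30 ± 1.53) and Ly6i (1.2 ± 0.733). Ly6a was rank 28 and Ly6e rank 82 of the 24102 genes tested, whereas Ly6i was rank 13343. Within each library Ly6a was above Ly6e, by 2.39-fold to 3.24-fold in this group, although their ranges over libraries overlapped. Ly6c1 was above Ly6g, and Ly6d above Ly6g6c, in 2 of the 3 libraries only, so the order of these neighbours does not hold from library to library. The order of the means was the same in untreated Tmem173iΔmye colon, where Ly6c1 and Ly6g, Ly6c2 and Ly6d, and Ly6d and Ly6g6c each kept their order in 2 of 3 libraries.

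In colitis the order changed in the same places in both genotypes. By the means, Ly6g moved from the fourth to the second place and Ly6g6c to the last. Ly6g was above Ly6e in 2 of the 3 libraries of each colitic group, and Ly6g6c was below Ly6i in 2 of 3 colitic Tmem173fl/fl and in all 3 colitic Tmem173iΔmye libraries. In colitic Tmem173fl/fl colon Ly6a had 259 ± 29.5 FPKM, Ly6g 165 ± 70.0 and Ly6e 96.2 ± 20.5, and Ly6a was above Ly6g in all 3 libraries. In colitic Tmem173iΔmye colon Ly6a stood at 808 ± 198 FPKM, clear of Ly6g at 195 ± 77.4 and Ly6e at 189 ± 36.9. Among the summed FPKM of the 8 genes, Ly6a made up 61.5% to 65.9% in the 6 untreated libraries, 38.8% to 48.6% in the colitic Tmem173fl/fl libraries and 53.1% to 67.4% in the colitic Tmem173iΔmye libraries. Ly6g made up 3.86% to 6.10%, 18.0% to 33.7% and 9.36% to 19.2% of the sum in the same order.

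**Figure D1:**
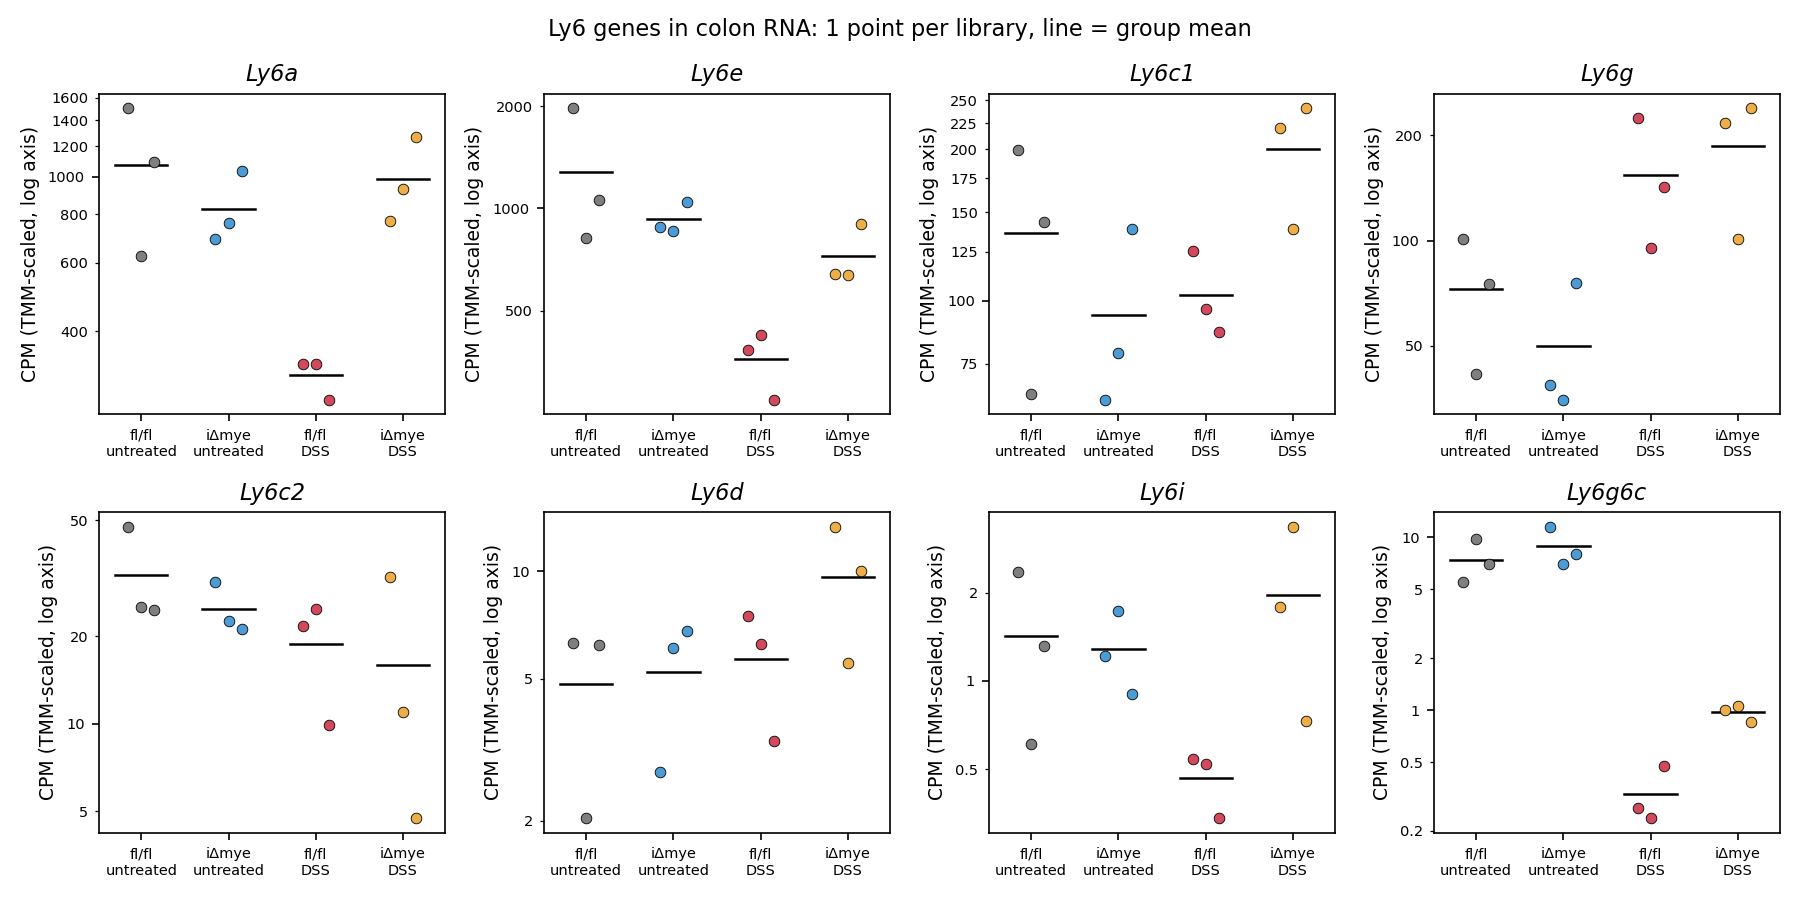
Level of each of the 8 Ly6 genes in CPM (TMM-scaled counts, log axis) by genotype and treatment, with 1 point per library and a line at the mean of 3. The 3 colitic Tmem173fl/fl libraries lie below all others for Ly6a (267 to 330 CPM) and Ly6e (273 to 425 CPM), and all 6 colitic libraries lie below the untreated ones for Ly6g6c.

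Each gene was tested on its counts with edgeR's quasi-likelihood test over all 24102 genes, and called at an adjusted p (Benjamini-Hochberg) under 0.05 where its level also changed by 1 or more on the log2 scale. Of the 7 members tested for DSS in Tmem173fl/fl mice, 2 fell (Ly6a and Ly6e), 1 rose (Ly6g) and 4 were not called, where 7.61% of all genes were called lower, 14.9% higher and 22.5% in either direction. For DSS in Tmem173iΔmye mice 1 of the 7, Ly6g, rose and none fell, against 1.48% of all genes called higher and 2.08% in either direction. Between the genotypes without DSS, 0 of 8 members were called, as were 0% of all genes by edgeR (328 at an unadjusted p, 3 by DESeq2), and 0 of 8 had an unadjusted p under 0.05 with the same fold or were called by DESeq2 or limma. The 8 log2 fold changes there ran from -0.53 to 0.26.

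Between the genotypes in colitis, 1 of 8, Ly6a, was called, and it was higher in Tmem173iΔmye mice (0.822% of all genes were called higher, 1.99% lower and 2.81% in either direction). The libraries of the 2 colitic groups did not overlap for 5 of the 8, Ly6a, Ly6e, Ly6c1, Ly6i and Ly6g6c, each higher in Tmem173iΔmye mice (for Ly6g6c, in counts that also served to choose it), and 12% of all genes stood apart in that direction. For the interaction, the DSS effect in Tmem173iΔmye mice minus that in Tmem173fl/fl mice, Ly6a was the 1 member of 7 called (2.55% of all genes in either direction, 0.934% higher and 1.61% lower). The 2 DSS comparisons and the colitic comparison share libraries with each other and with the interaction, so they are not independent of each other.

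**Figure D2:**
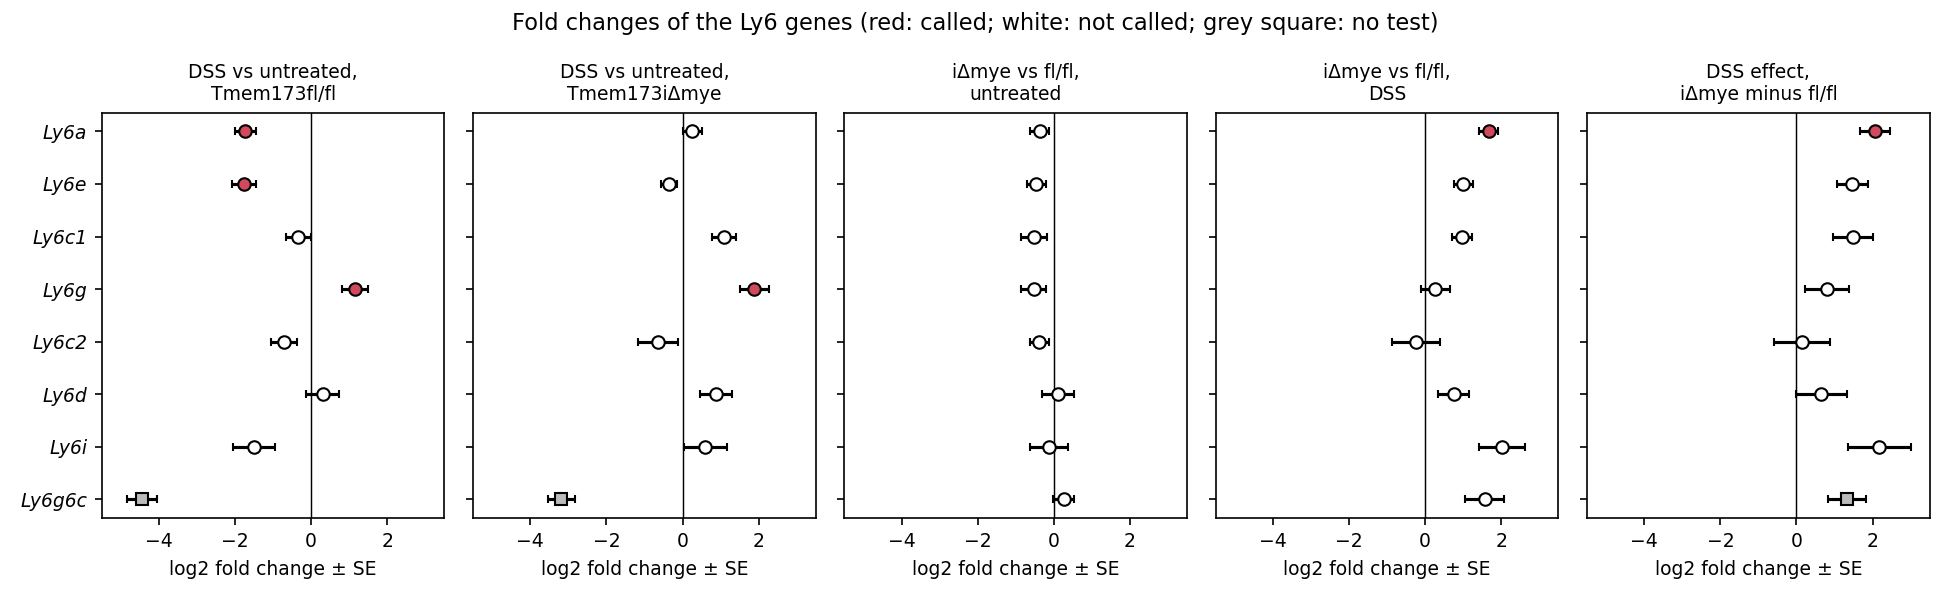
Log2 fold change with its standard error (edgeR, n = 3 libraries a group) of the 8 Ly6 genes in the 5 comparisons. Filled red circles were called, open circles were not, and grey squares are Ly6g6c where its values served to choose it and no test is given.

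Ly6a, a marker of haematopoietic stem cells, endothelium and regenerating epithelium, was the most abundant member and the one called between the colitic genotypes. In CPM, counts made comparable between libraries with TMM factors, the untreated Tmem173fl/fl libraries 1, 2 and 3 held 1503, 625 and 1093, and the colitic ones 330, 329 and 267. In Tmem173iΔmye colon the untreated libraries held 691, 759 and 1032, and the colitic libraries 1, 2 and 5 held 770, 930 and 1265. The colitic Tmem173fl/fl libraries lay below all 9 others, while the colitic Tmem173iΔmye libraries lay within or above the range of their untreated group.

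Ly6a fell 3.32-fold with DSS in Tmem173fl/fl mice (log2 fold change -1.73 ± 0.28 SE, edgeR adjusted p 0.001043), in every alternative setting run. In Tmem173iΔmye mice its log2 fold change was 0.25 ± 0.25 (edgeR adjusted p 0.6886). The difference between these effects was 2.06 ± 0.40 on the log2 scale (edgeR interaction, adjusted p 0.01828), and in colitis Ly6a was 3.18-fold higher in Tmem173iΔmye mice (1.67 ± 0.25, edgeR adjusted p 0.01809). This colitic call held without replicate 5 of Tmem173iΔmye (1.45, edgeR adjusted p 0.01756). It was lost without replicate 1 or 3 of colitic Tmem173fl/fl (adjusted p 0.08514 and 0.06421), without replicate 2 of colitic Tmem173iΔmye (0.06342) and with limma (0.06756 and 0.07049). The log2 fold change ran from 1.45 to 1.81 when any 1 library was left out, and in the 3 such fits that lost the call 0.112%, 0.51% and 0.191% of all genes were called. The interaction call was lost without replicate 1 or 2 of untreated Tmem173iΔmye (0.05585 and 0.05146) and with limma (0.0561 and 0.06311), while its value ran from 1.73 to 2.33 without any 1 library.

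Ly6e, a broadly expressed surface protein known to restrict several viruses, moved with Ly6a in Tmem173fl/fl mice. Its untreated Tmem173fl/fl libraries held 1975, 817 and 1059 CPM and the colitic ones 383, 425 and 273, with no overlap. It fell 3.40-fold there (log2 fold change -1.76 ± 0.31, edgeR adjusted p 0.001707), also in every alternative setting run. The Tmem173iΔmye libraries held 884, 860 and 1045 CPM untreated and 642, 636 and 897 in colitis, groups that overlapped through replicate 5 (-0.36 ± 0.21, edgeR adjusted p 0.4652). In colitis Ly6e was 2-fold higher in Tmem173iΔmye mice, again without overlap, but did not pass the test (log2 fold change 1 ± 0.25, edgeR adjusted p 0.07196), nor did the interaction (1.47 ± 0.41, edgeR adjusted p 0.07051). The colitic difference passed in some alternative settings, among them DESeq2 (1.03, adjusted p 0.001786) and 1 fit of all 12 libraries (1.01, edgeR adjusted p 0.04227), besides the unadjusted p. The interaction passed likewise with no filter on low values (1.41, edgeR adjusted p 0.01416), with DESeq2 (1.43, adjusted p 0.01274), and without replicate 2 of untreated Tmem173fl/fl or replicate 1 of colitic Tmem173iΔmye (1.71 and 1.55, edgeR adjusted p 0.04841 and 0.04046).

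Genes induced by interferon, summed as a list, were low in colitis in both genotypes, and their sum was lowest in colitic Tmem173fl/fl mice. Of a list of 24 such genes, which holds no Ly6 member, 23 were called lower with DSS in Tmem173fl/fl mice (median log2 fold change -2.68, against 0.03 over all genes) and 15 in Tmem173iΔmye mice (median -1.29). Between the colitic genotypes 2 of the 24, Ifit1 and Oas1a, both antiviral effectors, were called higher in Tmem173iΔmye mice. The list's median there was 1.19, while Bst2 (-0.44) and Ifi27l2a (-0.25) went the other way and were not called. The summed FPKM of the 24 ran from 1109 to 2257 in untreated Tmem173fl/fl, 1022 to 1499 in untreated Tmem173iΔmye, 161 to 431 in colitic Tmem173fl/fl and 435 to 772 in colitic Tmem173iΔmye libraries. Ly6a in colitic Tmem173iΔmye colon was thus within or above its untreated range while this list was below its own. The summed FPKM of 11 epithelial genes was 6404 to 7974, 6730 to 8457, 2691 to 4678 and 5313 to 6889 in the same group order, and 5 of the 11 (Cdh1, Epcam, Krt8, Krt19 and Vil1) were called lower with DSS in Tmem173fl/fl mice, none in Tmem173iΔmye mice, and 1, Elf3, higher in Tmem173iΔmye mice in colitis. Of 12 genes of surface colonocytes, the mature absorptive cells, 6 were called lower and 1 higher with DSS in Tmem173fl/fl mice and 1 lower in Tmem173iΔmye mice. Between the colitic groups 3 of these 12, the chloride exchanger gene Slc26a3, the carbonic anhydrase gene Car4 and the mucin gene Muc3, were called higher in Tmem173iΔmye mice (log2 fold change 1.84, 2.10 and 1.42, edgeR adjusted p 0.03321, 0.01847 and 0.03708), and each had a called interaction, as Ly6a did. Of 12 genes of regenerating epithelium, 5 (Clu, Il1rn, Il33, Msln and Spp1) were called higher with DSS in Tmem173fl/fl mice, where Ly6a fell (median log2 fold change 0.99). In Tmem173iΔmye mice 3 of the 12 were called higher (median 1.04), and between the colitic groups the median of the 12 was -0.18. The part of these lists, and of Hoxb13, in the Ly6a and Ly6e differences was not tested.

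Ly6g, the neutrophil antigen, rose with DSS in both genotypes. Its untreated Tmem173fl/fl libraries held 101, 41.6 and 75.0 CPM and the colitic ones 224, 95.2 and 143, so that 1 untreated library exceeded the lowest colitic one. The rise was 2.22-fold (log2 fold change 1.15 ± 0.35, edgeR adjusted p 0.02716). In Tmem173iΔmye mice the untreated libraries held 38.5, 35.1 and 75.9 CPM and the colitic ones 217, 101 and 239, with no overlap. There the rise was 3.71-fold (1.89 ± 0.38, edgeR adjusted p 0.03197), and the difference between the genotypes' effects did not pass the test (0.81 ± 0.58, edgeR adjusted p 0.4981).

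Both Ly6g calls depended on single libraries and on the test. The call in Tmem173fl/fl mice was lost without replicate 2 or 3 of the untreated or replicate 1 of the colitic group (log2 fold change 0.87, 1.19 and 0.77, edgeR adjusted p 0.07433, 0.08092 and 0.1111). It was also lost with a term for the Xist-rich library (1.19, edgeR adjusted p 0.07969), in 1 fit of all 12 libraries (1.09, 0.06041) and with limma (1.13 and 1.14, adjusted p 0.08384 and 0.0865). The call in Tmem173iΔmye mice was lost without any 1 of the 3 untreated libraries (1.75, 1.70 and 2.36, edgeR adjusted p 0.2108, 0.1983 and 0.07587), without replicate 1 of the colitic group (1.77, 0.08833) and with limma (1.88 and 1.90, adjusted p 0.1524 and 0.147). In these fits 0.299%, 0.212%, 0.236%, 0.987%, 0.241% and 0.257% of all genes were called, in that order, against 2.08% in the main test. In the 3 Tmem173fl/fl fits without 1 library the shares were 20.6%, 20.2% and 19.8%, against 22.5%.

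Beside other neutrophil genes, Ly6g was high in untreated colon, and its libraries overlapped between the colitic genotypes. In untreated colon Ly6g had 43.0 to 104 FPKM in Tmem173fl/fl and 36.4 to 79.3 in Tmem173iΔmye libraries, whereas 15 neutrophil genes summed to 3.14 to 10.3 and 4.92 to 12.8 FPKM, with the granule protease and peroxidase genes Elane and Mpo at 0 counts in all 3 untreated Tmem173fl/fl libraries and Mmp8 at 0 in all untreated Tmem173iΔmye libraries. S100a9, the calprotectin subunit abundant in neutrophils, had 0.126 to 2 and 0.453 to 2.47 FPKM there. With DSS the neutrophil sum was 513 to 768 FPKM in Tmem173fl/fl and 33.4 to 139 in Tmem173iΔmye libraries, and 13 of 14 tested genes were called higher in the first genotype (median log2 fold change 6.5) and 7 of 14 in the second (2.85). Between the colitic groups 9 of the 14 were called lower in Tmem173iΔmye mice (median -2.86), while Ly6g was 102 to 240 FPKM in colitic Tmem173fl/fl and 106 to 248 in colitic Tmem173iΔmye libraries (log2 fold change 0.27 ± 0.39, edgeR adjusted p 0.7408). Of the 15 neutrophil genes Retnlg reached 4.54 FPKM in an untreated library. The part of neutrophils in the Ly6g values was not tested.

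**Figure D3:**
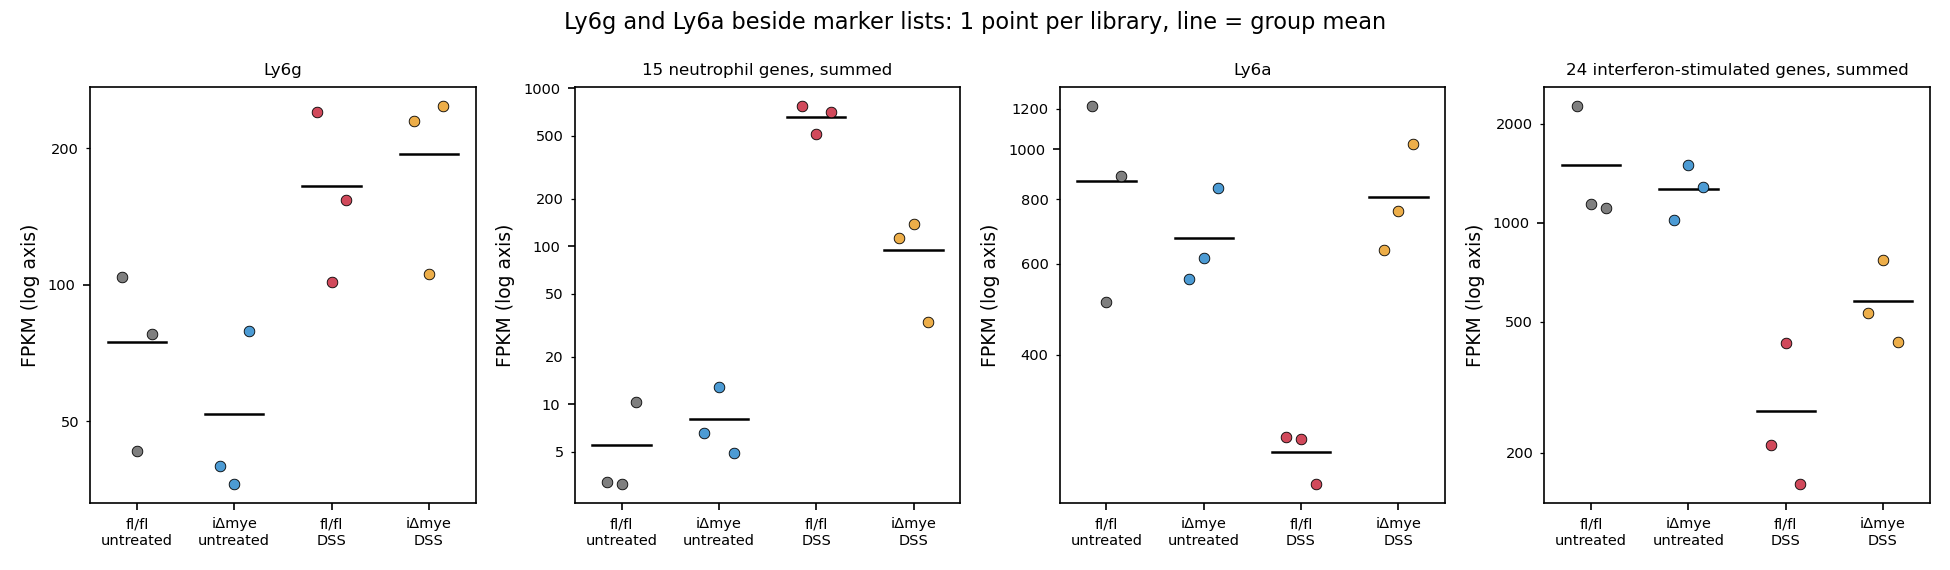
FPKM on log axes of Ly6g, of 15 neutrophil genes summed, of Ly6a and of 24 interferon-stimulated genes summed, with 1 point per library and a line at each group mean. The neutrophil sum differs between the colitic groups (513 to 768 against 33.4 to 139) while Ly6g overlaps, and Ly6a in colitic Tmem173iΔmye colon (638 to 1024) overlaps the untreated libraries while the interferon sum (435 to 772) does not.

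Ly6c1 and Ly6c2 encode nearly identical Ly6C proteins, the first known from endothelium as well as lymphocytes and the second from monocytes. Ly6c1 held 199, 65.4 and 144 CPM in untreated and 126, 96.2 and 86.7 in colitic Tmem173fl/fl libraries, which overlapped. The Tmem173iΔmye libraries held 63.7, 78.8 and 139 CPM untreated and 220, 139 and 241 in colitis, and the groups met at 139. Its log2 fold change with DSS was -0.34 ± 0.33 in Tmem173fl/fl mice (edgeR adjusted p 0.4723) and 1.09 ± 0.32 in Tmem173iΔmye mice (adjusted p 0.1209), and neither passed the test. The latter passed with no filter on low values (1.08, edgeR adjusted p 0.01889), with DESeq2 (1.09, adjusted p 0.01909) and with a term for the Xist-rich library (1.15, edgeR adjusted p 0.03552). In colitis the log2 fold change between genotypes was 0.96 ± 0.26 (edgeR adjusted p 0.08559), with no overlap of the libraries.

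Endothelial genes were highest in another group than Ly6c1. All 15 of a list of such genes were called higher with DSS in Tmem173fl/fl mice (median log2 fold change 2.44) and between the colitic groups 8 of 15 were called lower in Tmem173iΔmye mice (median -1.33). Their summed FPKM was 47.2 to 56.4 and 52.7 to 56.3 in the untreated groups, 212 to 300.2 in colitic Tmem173fl/fl and 76.0 to 145 in colitic Tmem173iΔmye libraries, and no gene of the list was at 0. The group with the highest endothelial sum had thus a Ly6c1 level within its untreated range, and the group with the highest Ly6c1 level had a lower endothelial sum. The part of endothelial cells in the Ly6c1 values was not tested.

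Ly6c2 was not called in any comparison. It held 47.6, 25.2 and 24.7 CPM in untreated and 21.6, 24.8 and 9.87 in colitic Tmem173fl/fl libraries, and 30.8, 22.6 and 21.2 against 32.0, 11.0 and 4.74 in Tmem173iΔmye libraries. The colitic Tmem173iΔmye group thus spread widely around its mean, 15.9 ± 14.3 CPM (SD, n = 3). Its log2 fold change with DSS was -0.71 ± 0.35 and -0.65 ± 0.53 (edgeR adjusted p 0.1419 and 0.6141). In Tmem173iΔmye mice it was -1.66 without replicate 1 of the colitic group, -0.42 without replicate 2 and -0.17 without replicate 5 (edgeR adjusted p 0.08289, 0.8037 and 0.8414). The 12 monocyte genes summed to 453 to 637, 472 to 562, 472 to 531 and 570 to 630 FPKM in the 4 groups, untreated Tmem173fl/fl, untreated Tmem173iΔmye and their colitic counterparts in turn, and none was at 0, but Plac8 alone gave 147 to 533 FPKM of the sum. Of the 12, 7 were called higher and 1, Plac8, lower with DSS in Tmem173fl/fl mice, and 2, Chil3 and Itgam, higher in Tmem173iΔmye mice. Between the colitic groups Plac8 was called higher and Itgam lower in Tmem173iΔmye mice. Their part in the Ly6c2 values was not tested.

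The balance of this pair of genes does not depend on library size and was measured as the share of Ly6c2 in their summed counts. The share was 19.3%, 27.8% and 14.7% in untreated and 14.7%, 20.5% and 10.2% in colitic Tmem173fl/fl libraries. It was 32.6%, 22.3% and 13.3% in untreated and 12.7%, 7.35% and 1.93% in colitic Tmem173iΔmye libraries, where it rested on 78 to 449 Ly6c2 counts. The exact 95% binomial interval of the lowest, 1.53% to 2.40%, lay below that of every other library. Every colitic Tmem173iΔmye library was thus below every untreated one of its genotype.

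The mean share differed by -15.4 percentage points with DSS in Tmem173iΔmye mice (exact two-sided permutation p = 0.1, the smallest that 3 against 3 libraries allow; 0.4 adjusted over the 4 comparisons). It differed by -5.45 points with DSS in Tmem173fl/fl mice (exact p = 0.5), by -7.81 points between the colitic genotypes (exact p = 0.2, and -5.11 points without replicate 5 of colitic Tmem173iΔmye, -5.13 without replicate 2 of colitic Tmem173fl/fl) and by 2.11 points between the untreated ones (exact p = 0.8). No comparison could pass 0.05 in this design. The intervals cover counting error only, and reads from the sequence that the genes share could have been assigned to either or to none.

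**Figure D4:**
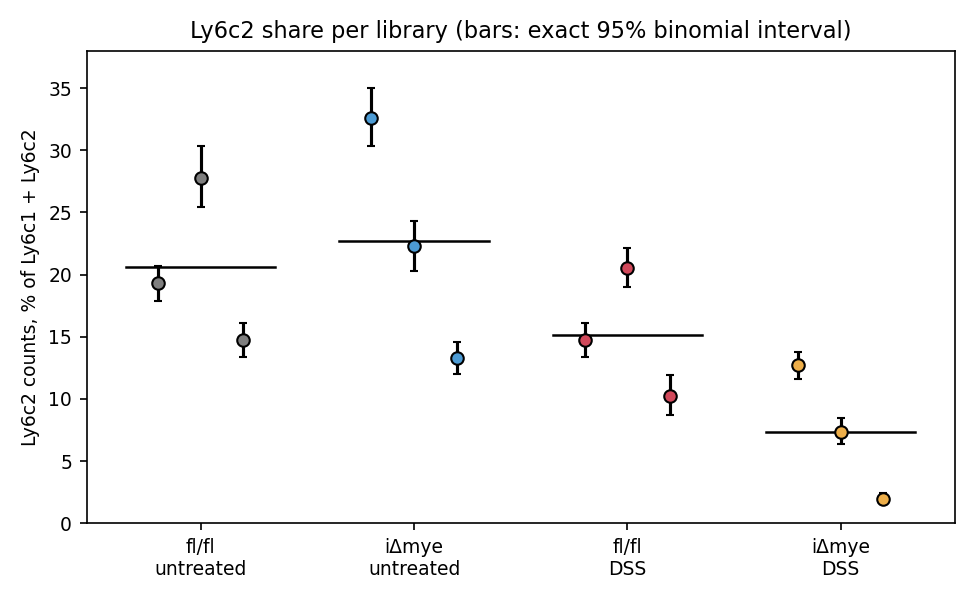
Share of Ly6c2 in the summed counts of Ly6c1 and Ly6c2, in percent, with 1 point per library, its exact 95% binomial interval (counting error only) and a line at the mean of each group of 3. The colitic Tmem173iΔmye libraries run from 1.93% to 12.7%, below the 13.3% to 32.6% of the untreated libraries of that genotype.

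By FPKM, Ly6d and Ly6i had the lowest means of the members on chromosome 15 in untreated colon, and Ly6c2 was below Ly6d in both colitic groups. Ly6d, known from early B cells and squamous epithelium, held 6.29, 2.03 and 6.20 CPM in untreated and 7.48, 6.25 and 3.34 in colitic Tmem173fl/fl libraries, and 2.73, 6.11 and 6.79 against 13.3, 5.54 and 10.0 in Tmem173iΔmye libraries. All 4 groups overlapped, and its log2 fold changes with DSS were 0.30 ± 0.44 and 0.88 ± 0.43 (edgeR adjusted p 0.6316 and 0.3558). Most squamous markers were scarce: the basal keratin gene Krt5 had at most 0.315 FPKM in any library, Trp63 was at 0 in all untreated Tmem173fl/fl libraries, and Calml3 and Sprr3 were at 0 in all 12. Of the 15 squamous genes 7 were tested, and 2 of these, Krt5 and Sbsn, were called higher with DSS in Tmem173fl/fl mice and none in the other comparisons. The 15 summed to 79.8 to 114, 94.7 to 109, 33.0 to 76.7 and 84.1 to 103 FPKM in the 4 groups in the order above, nearly all of it Sfn, a 14-3-3 gene also made by other epithelia (77.1 to 110.0, 92.5 to 106, 29.5 to 72.5 and 82.1 to 101.2 FPKM), and the other 14 genes summed to 1.64 to 3.73, 2.21 to 3.19, 3.34 to 4.13 and 1.91 to 6.59 FPKM. Their part in the Ly6d values was not tested.

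Ly6i, a close relative of Ly6a and Ly6c1 known from macrophages, had 5 to 54 counts per library, the fewest of the members on chromosome 15. Its libraries held 2.35, 0.609 and 1.31 CPM in untreated and 0.542, 0.521 and 0.340 in colitic Tmem173fl/fl colon, and 1.21, 1.74 and 0.902 against 1.78, 3.36 and 0.729 in Tmem173iΔmye colon. The colitic Tmem173fl/fl libraries were the lowest of the 12, and neither the DSS effect (log2 fold change -1.50 ± 0.56, edgeR adjusted p 0.06049) nor the colitic difference between genotypes (2.02 ± 0.60, edgeR adjusted p 0.1081) passed the test. The DSS effect passed with no filter on low values (-1.50, edgeR adjusted p 0.04423) and without replicate 2 of untreated Tmem173fl/fl (-1.87, 0.02066), and was -0.96 without replicate 1 of that group (0.2398). The colitic difference passed in 3 of 15 alternatives, among them without replicate 5 of colitic Tmem173iΔmye (2.41, edgeR adjusted p 0.04449) and with DESeq2 (2.08, adjusted p 0.02689).

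Ly6g6c, a member of the Ly6 cluster in the major histocompatibility region, was chosen for the fall described here. It held 5.53, 9.75 and 7.01 CPM in untreated Tmem173fl/fl libraries and 0.271, 0.237 and 0.477 in colitic ones, the latter from 5, 5 and 7 counts. In Tmem173iΔmye colon it held 11.5, 7.01 and 8 CPM untreated and 0.998, 1.06 and 0.850 in colitis, from 14, 17 and 14 counts. Every colitic library was far below every untreated one, 21.8-fold by the fitted mean in Tmem173fl/fl mice (log2 fold change -4.44 ± 0.39) and 9.09-fold in Tmem173iΔmye mice (-3.18 ± 0.36).

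The genotype contrasts of Ly6g6c are not the one that chose it, but the colitic contrast runs on the same low colitic counts and is not independent of that choice. In untreated colon its log2 fold change was 0.26 ± 0.27 (edgeR adjusted p 1). In colitis it was 2.95-fold higher in Tmem173iΔmye mice, with no overlap of the libraries, but did not pass the test (log2 fold change 1.56 ± 0.52, edgeR adjusted p 0.141). Over 15 alternatives this fold change ran from 0.45 to 1.99 on the log2 scale and was called in 1. The value rested on 5 to 17 counts per colitic library.

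The rest of the Ly6/uPAR superfamily gives the members a family background. Of 43 other family genes listed, 37 were in the table and 23 were tested. With DSS in Tmem173fl/fl mice 7 of the 23 were called higher and 4 lower (median log2 fold change -0.42), and in Tmem173iΔmye mice 4 higher and none lower (median 0.14). The 4 lower in Tmem173fl/fl mice, named after their values were seen, were Ly6g6e (-2.74), 9030619P08Rik (-1.70), Lypd8 (-1.54) and Spaca4 (-1.07, each a log2 fold change). Between the genotypes 0 of 23 were called without DSS and 2, both higher in Tmem173iΔmye mice, in colitis (median 0.54), where 0.822% of all genes were called higher. Like Ly6a, these 2 had a called interaction.

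Lypd8, a secreted mucosal protein that keeps flagellated bacteria from the epithelium, was low in the same group as Ly6a. It had 6564 to 7855 FPKM in untreated and 1853 to 2830 in colitic Tmem173fl/fl libraries, but 6011 to 7206 and 6129 to 8813 in the Tmem173iΔmye groups, so that the colitic Tmem173fl/fl libraries stood below the 9 others. Its log2 fold change between the colitic genotypes was 1.57 ± 0.29 (edgeR adjusted p 0.03031) and its interaction 1.73 ± 0.29 (adjusted p 0.008853). BC025446 was the other, at 12.3 to 16.3 CPM in colitic Tmem173fl/fl and 36.6 to 51.4 in colitic Tmem173iΔmye libraries (1.62 ± 0.21, edgeR adjusted p 0.01368).

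Other family genes rose with DSS. Plaur, the urokinase receptor, rose in both genotypes (log2 fold change 3.30 ± 0.17 in Tmem173fl/fl and 2.35 ± 0.33 in Tmem173iΔmye mice, edgeR adjusted p 1.217e-06 and 0.007612). Gpihbp1, which carries lipoprotein lipase across capillary endothelium, rose in Tmem173fl/fl mice (3.02 ± 0.38, adjusted p 0.0002227) and had a lower DSS effect in Tmem173iΔmye mice (interaction -2.89 ± 0.53, adjusted p 0.01338). Gml and Gml2, neighbours of the Ly6 genes, were nearly silent in untreated colon. Gml had 0 to 1 counts in untreated and 33 to 62 in colitic Tmem173fl/fl libraries, and 0 to 3 against 11 to 105 in Tmem173iΔmye libraries. Gml2 was at 0 in all 6 untreated libraries and had 24 to 30 counts in colitic Tmem173fl/fl and 28 to 51 in colitic Tmem173iΔmye libraries. Against a floor of 3 counts per library, Gml2 was at least 7.22-fold higher with DSS in Tmem173fl/fl mice and at least 14.9-fold higher in Tmem173iΔmye mice.

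Within groups some members varied together from library to library. Across the 12 libraries, after the mean of each group was subtracted from log2(CPM + 0.5), Pearson's r was 0.89 for Ly6a and Ly6e, 0.88 for Ly6c1 and Ly6g, 0.87 for Ly6c1 and Ly6d, and 0.85 for Ly6a and Ly6c1. Ly6c2 had 0.14 with its near copy Ly6c1 and -0.12 with Ly6a. Ly6g6c had negative values with all 7 others, from -0.14 with Ly6c2 to -0.84 with Ly6d. These values describe the same 12 libraries and share their depth and tissue make-up.

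Among 14550 genes with a mean FPKM of at least 1 that are not members, the patterns most like each member on this scale had an r of 0.89 or more. These are the highest of 14550 values over few libraries, with no test and no background. They do not show that the genes named are linked to the members. Most like Ly6a were Lix1 (0.922), Rpsa-ps2 (0.916) and C2 (0.915). Most like Ly6e were Zfp346 (0.962), BC005624 (0.941) and Tmem253 (0.934). For Ly6c1 they were Ifi30 (0.948), Clca4b (0.935) and Syn2 (0.924).

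For Ly6c2 they were Tlr9 (0.983), Adamts7 (0.979) and Gm1966 (0.971), and for Ly6g they were Lsm10 (0.956), Arhgef10l (0.95) and Pla2g4f (0.946). For the low members they were Gm12396 (0.928), Glb1l (0.892) and Mblac1 (0.892) for Ly6d, Gm27415 (0.947), n-R5s183 (0.947) and 1700052K11Rik (0.931) for Ly6i, and Gm25654 (0.930), Gm15764 (0.920) and Tstd2 (0.918) for Ly6g6c. No gene was among the nearest 3 of more than 1 member.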

How the data were processed

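Libraries were made from poly(A) RNA of whole colon with the NEBNext Ultra kit. Per the submitters' processing notes, the tools were CASAVA 1.8, fastp, HISAT2 2.0.5, featureCounts 1.5.0-p3 and DESeq2 1.20.0 on GRCm38. The authors deposited whole-number counts per gene, and FPKM that equal counts per gene length and library total up to 1 constant per library. Columns of the authors' own comparisons (log2 fold changes, p-values) and their group means were not used.

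Sample titles gave the group and replicate number. Counts of 13823237 to 18718915 per library were tested in R 4.3.3 with edgeR 4.0.16 (quasi-likelihood, TMM scaling, Benjamini-Hochberg adjustment) on 24102 genes that reached an FPKM of 0.1 in 3 or more libraries. Each fit held the groups compared, and the interaction held all 12 libraries. A standard error is the log2 fold change divided by the square root of F. The procedure was tested on simulated data. Alternatives were DESeq2 1.42.0, limma 3.58.1 on log2(FPKM + 0.1) or log2(FPKM + 1), RLE scaling, other filters, 1 fit of 12 libraries, unadjusted p, a replicate block, leaving out each library and, added after seeing the data, an Xist term. The Ly6c2 share was tested by exact permutation (scipy 1.17.1).

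All 8 members were named in every comparison, other family genes by the largest called fold changes (up to 4 a comparison), and per member the 3 most similar genes. The members and gene lists were chosen with earlier results of these data known. Transcript overlap used GENCODE transcripts, and promoters came from RefSeq.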

Additional observations from a re-analysis of the deposited data

Results flagged for a closer look

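The DSS effect on Ly6a differed between the genotypes by a test of the difference itself. Its log2 fold change with DSS was 2.06 ± 0.40 higher in Tmem173iΔmye than in Tmem173fl/fl mice (edgeR interaction over 12 libraries, adjusted p 0.01828), with all 3 colitic Tmem173fl/fl libraries below their untreated group. The call was lost when some single untreated Tmem173iΔmye libraries were left out, and with limma (adjusted p up to 0.06311).

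For Ly6c1 every colitic Tmem173fl/fl library was below the mean of its untreated group (136 CPM) and every colitic Tmem173iΔmye library was above that of its own (93.8 CPM). The 2 Tmem173fl/fl groups overlapped, and the log2 fold change with DSS there was 0.04 without replicate 1 of the untreated group. The interaction was 1.49 ± 0.52 on the log2 scale and did not pass the test (edgeR adjusted p 0.1474). It passed with no filter on low values (1.43, edgeR adjusted p 0.04037) and by the unadjusted p.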

How the results depend on the processing

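The falls of Ly6a and Ly6e with DSS in Tmem173fl/fl mice were called under the main setting and all 15 alternatives, at log2 fold changes from -2.01 to -1.41 and from -2.01 to -1.31. The number of members called there, 3 in the main test, ran from 2 to 4, the 4 with no filter or unadjusted p, where Ly6i joined. The number called with DSS in Tmem173iΔmye mice, 1 in the main test, was 2 (Ly6g and Ly6c1) with no filter, DESeq2, unadjusted p, the Xist term or the replicate block, 0 with limma at both pseudocounts, and 0 to 1 when a library was left out. In colitis the number called between genotypes, 1 in the main test, was 3 with DESeq2 and with 1 fit of 12 libraries, 4 with unadjusted p, 2 with the Xist term, 0 with limma and 0 to 2 when a library was left out. For the interaction it was 3 with no filter, 2 with DESeq2, 4 with unadjusted p, 0 with limma and 0 to 2 without 1 library. The same replicate numbers do not pair the libraries (r of same-numbered deviations from -0.172 to 0.184). With the replicate block the count of members called was 3 and 2 for DSS in Tmem173fl/fl and Tmem173iΔmye mice, 0 between untreated genotypes, 0 in colitis (Ly6a 1.36, edgeR adjusted p 0.1069) and 1 for the interaction. The share of all genes called moved with the setting too. For DSS in Tmem173fl/fl mice it was 22.5% in the main test, 18.4% with no filter and 26% with unadjusted p. It was 20.5% with the block, 21.3% and 11.8% with limma, and 19.8% to 23.1% without 1 library. For DSS in Tmem173iΔmye mice it was 2.08% in the main test, 3.29% with no filter, 4.72% with DESeq2, 9.1% with unadjusted p, 2.63% with the Xist term, 5.39% with the block and 0.257% and 0.241% with limma. Without 1 library it ran from 0.212% to 6.09%. In colitis it was 2.81%, against 6.72% with DESeq2, 6.19% in 1 fit, 10.4% with unadjusted p, 2.16% with the Xist term, 0.419% with the block and 0.581% and 0.639% with limma. Its range without 1 library was 0.112% to 6.61%. For the interaction it was 2.55%, against 3.69% with no filter, 5.66% with DESeq2, 11.4% with unadjusted p, 2.06% and 2.51% with limma and 1.11% to 7.17% without 1 library. The cause of these changes was not tested.

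Signs that reversed belonged to values that had not passed the test. Over the fits without 1 library, Ly6c1 ran from -0.67 to 0.04 and Ly6d from -0.07 to 0.55 with DSS in Tmem173fl/fl mice, and Ly6i from -0.03 to 1.02 in Tmem173iΔmye mice. Between the untreated genotypes Ly6c2 ran from -0.55 to 0, Ly6i from -0.49 to 0.41, Ly6d from -0.25 to 0.43 and the Ly6c2 share difference from -2.83 to 6.84 points. In colitis Ly6c2 ran from -1.28 to 0.19, and it was 0.19 with the Xist term. Its interaction ran from -0.87 to 0.56, and it was -0.25 and -0.14 with limma. Depth limits Ly6g6c and Ly6i most, at 5 to 54 counts in colitic libraries.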
